A study of Mus musculus with 6 samples.

Results

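The mRNAs of 9 mouse genes that handle iron, haem and metal ions were followed through single cells of naive, rejecting and tolerized kidneys. They are Slc40a1, Hmox1, Cd163, Fth1, Ftl1, Tfrc, Slc11a1, Mt1 and Mt2. They were chosen by name, and each symbol matched 1 gene in every matrix, so 9 of the 28208 genes that the 6 matrices share are described. Naive kidneys came from male C57BL/6 (B6) mice of 10 to 12 weeks that had no transplant (n = 2). Rejecting kidneys were BALB/c kidneys, with a stated age of 6 to 7 weeks, placed in B6 males whose own kidneys had been removed on both sides, with no further treatment (n = 2). Tolerized kidneys were transplanted in the same way, but the recipients also received intravenous infusions of BALB/c splenocytes treated with ethylenecarbodiimide (ECDI), a crosslinker, around the time of surgery (n = 2). Both kinds of graft were taken on day 15. The study took donors of either sex, and the sex of each donor was not determined here. Tubular cells of a graft are those of the BALB/c donor, and the strain of its leukocytes was not determined here. In a separate set of day 15 grafts, the study's flow cytometry assigned nearly all myeloid cells to the recipient.

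Iron enters most cells as transferrin-bound iron through the transferrin receptor, encoded by Tfrc, and macrophages also move iron out of phagosomes through Slc11a1, a divalent metal transporter of the phagosome membrane. Ferritin, built of heavy (Fth1) and light (Ftl1) chains, stores iron, and ferroportin, encoded by Slc40a1, is the iron exporter. Macrophages take up haemoglobin bound to haptoglobin through Cd163, and haem oxygenase 1, encoded by Hmox1, opens the haem ring and frees its iron. Mt1 and Mt2 encode metallothioneins, small cysteine-rich proteins that bind zinc and copper and are induced by metals, glucocorticoids and stress. In the kidney, tubular cells reabsorb filtered iron and haem proteins, and infiltrating macrophages clear dying cells and erythrocytes.

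Hairpins in 4 of these mRNAs are bound by iron regulatory proteins, which hold back translation when the hairpin lies before the coding sequence and protect the mRNA from decay when it lies after it. The hairpins are shown because they set which of the genes iron can control at the level of the mRNA itself. A search of the GENCODE M21 transcripts (GRCm38) for the loop CAGTGN between paired stems with an unpaired C found 1 hairpin before the coding sequence of Fth1, Ftl1 and Slc40a1 and 4 after that of Tfrc. The loop is in capitals in the 30-base windows that follow.
Fth1, chr19:9982732-9982761, plus strand: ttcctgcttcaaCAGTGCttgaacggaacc
Ftl1, chr7:45459778-45459807, minus strand: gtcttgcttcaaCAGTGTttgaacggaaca
Slc40a1, chr1:45925464-45925493, minus strand: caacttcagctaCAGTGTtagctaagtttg
Tfrc, chr16:32631219-32631248, plus strand: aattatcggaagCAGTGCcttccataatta
Tfrc, chr16:32631598-32631627, plus strand: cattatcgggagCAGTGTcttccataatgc
Tfrc, chr16:32631663-32631692, plus strand: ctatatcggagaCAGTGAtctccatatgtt
Tfrc, chr16:32631710-32631739, plus strand: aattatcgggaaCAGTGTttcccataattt

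Mt1 and Mt2 lie next to each other on chromosome 8, with 5513 bases between the end of Mt2 and the start of Mt1, and moved together in most classes of cells described here, so their promoters are shown. MTF1, the zinc-sensing transcription factor, binds metal response elements. Their core was searched as TGCACNC or TGCGCNC on both strands in the 250 bases before the RefSeq start (GRCm38.p6), and matches are in capitals.
Mt1, chr8:94178839-94179088, plus strand: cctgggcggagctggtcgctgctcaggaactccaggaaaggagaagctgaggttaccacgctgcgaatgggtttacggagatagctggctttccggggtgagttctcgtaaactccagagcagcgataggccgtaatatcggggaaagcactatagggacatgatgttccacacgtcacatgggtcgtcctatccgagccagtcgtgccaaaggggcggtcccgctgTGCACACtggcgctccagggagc
Mt2, chr8:94172368-94172617, plus strand: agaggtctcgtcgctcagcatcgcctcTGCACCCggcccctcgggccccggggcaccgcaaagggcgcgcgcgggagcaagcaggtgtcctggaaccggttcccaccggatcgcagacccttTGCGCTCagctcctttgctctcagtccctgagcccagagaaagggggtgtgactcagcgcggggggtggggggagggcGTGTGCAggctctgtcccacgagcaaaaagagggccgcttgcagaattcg
The Mt1 window held 1 match and the Mt2 window 3, of which 1 was on the opposite strand. Of 32851 such windows, 21.4% held at least 1 match and 1.26% at least 3. With the 50 bases after the start included, the 300-base windows held 3 matches for Mt1 and 4 for Mt2, and 1.97% and 0.517% of all windows held as many. A match is a description of these letters and not a measured binding site.

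Cells were barcoded in droplets, and unique molecular identifiers (UMIs) were counted per gene and barcode. The matrices held 34874702 to 96803926 UMIs each, and 45667 cells were used after filtering and removal of called doublets. Classes were rebuilt by clustering and named from marker genes with the ending "-like", and no gene described here was used to cluster cells or to name a class. Naive kidneys gave few phagocytes, with 36 and 98 macrophage-like cells against 334 to 1327 in each graft, whereas proximal tubule-like cells numbered 1092 to 4842 per kidney. Nearly all naive macrophage-like cells lay in a cluster led by Mmp13, Mgl2 and Mmp12, and those of the grafts in clusters led by Ccl8, Lyz1 and C1q genes. Naive and graft cells of the proximal tubule, loop of Henle and distal convoluted tubule also lay mostly in different clusters. The naive matrices name no software version and list other genes than the 4 graft matrices, which name version 3.0.1. The naive pair shared 111 barcodes, graft pairs 18 to 35, and naive-graft pairs at most 4. The effects of age, transplantation and processing on a naive-graft difference, and in tubular cells also those of strain and donor sex, cannot be told apart.

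Each gene had its own distribution over the kidney. These levels are CPM, a gene's UMIs scaled to a common library total, without further scaling, with the mean and range over the kidneys that had at least 20 cells of the class. Hmox1 was highest in macrophage-like cells (mean 408 CPM, 115 to 745) and lay at 89.1 CPM (54.4 to 147) in macrophage/monocyte-like and 88.4 CPM (63.6 to 118) in monocyte-like cells. The last pair did not differ beyond its spread, and both overlapped with the naive macrophage-like cells. Slc11a1 was a phagocyte and neutrophil mRNA, with 195 CPM in macrophage-like, 152 CPM in neutrophil-like and 138 CPM in monocyte-like cells and a mean of at most 1.07 CPM in every tubular class. Slc40a1 was highest in neutrophil-like cells (147 CPM, 79.2 to 183) and macrophage-like cells (96 CPM, 10.1 to 224), whose ranges overlapped, and lay at 20.4 to 35.7 CPM on average in the tubular classes. The neutrophil-like values of both genes rest on few cells, 35 to 43 per graft, and no naive kidney had enough. In these cells 3 UMIs equal 27.4 to 47.6 CPM.

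Ferritin mRNA was abundant everywhere. Fth1 reached a mean of 14748 CPM (8115 to 18638) in macrophage-like cells and 11389 CPM (9928 to 13289) in proximal tubule-like cells, ranges that overlapped, and was lowest in NK cell-like cells (2064 CPM, 1751 to 2843). Ftl1 averaged 9834 CPM in macrophage-like and 7568 CPM in proximal tubule-like cells, and 1816 to 1986 CPM in the other tubular classes. Tfrc stood out in distal convoluted tubule-like cells (mean 120 CPM, 62.9 to 210), where the lowest kidney exceeded the highest of any other class.

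The metallothioneins were mRNAs of the distal nephron. Mt1 averaged 2295 CPM (1785 to 3141) in loop of Henle-like cells and 2038 CPM (1360 to 2793) in distal convoluted tubule-like cells, which overlapped, and 605 CPM (384 to 932) in collecting duct-like cells, which did not overlap with either. Mt2 followed the same order, with 393, 344 and 84.9 CPM on average. Proximal tubule-like cells held far less of both, 102 CPM of Mt1 and 9.74 CPM of Mt2. Cd163, a marker of resident macrophages, was almost absent, with 2 UMIs over both naive kidneys in the phagocyte classes together and 9 and 5 UMIs over the rejecting and the tolerized pair.

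**Figure D1:**
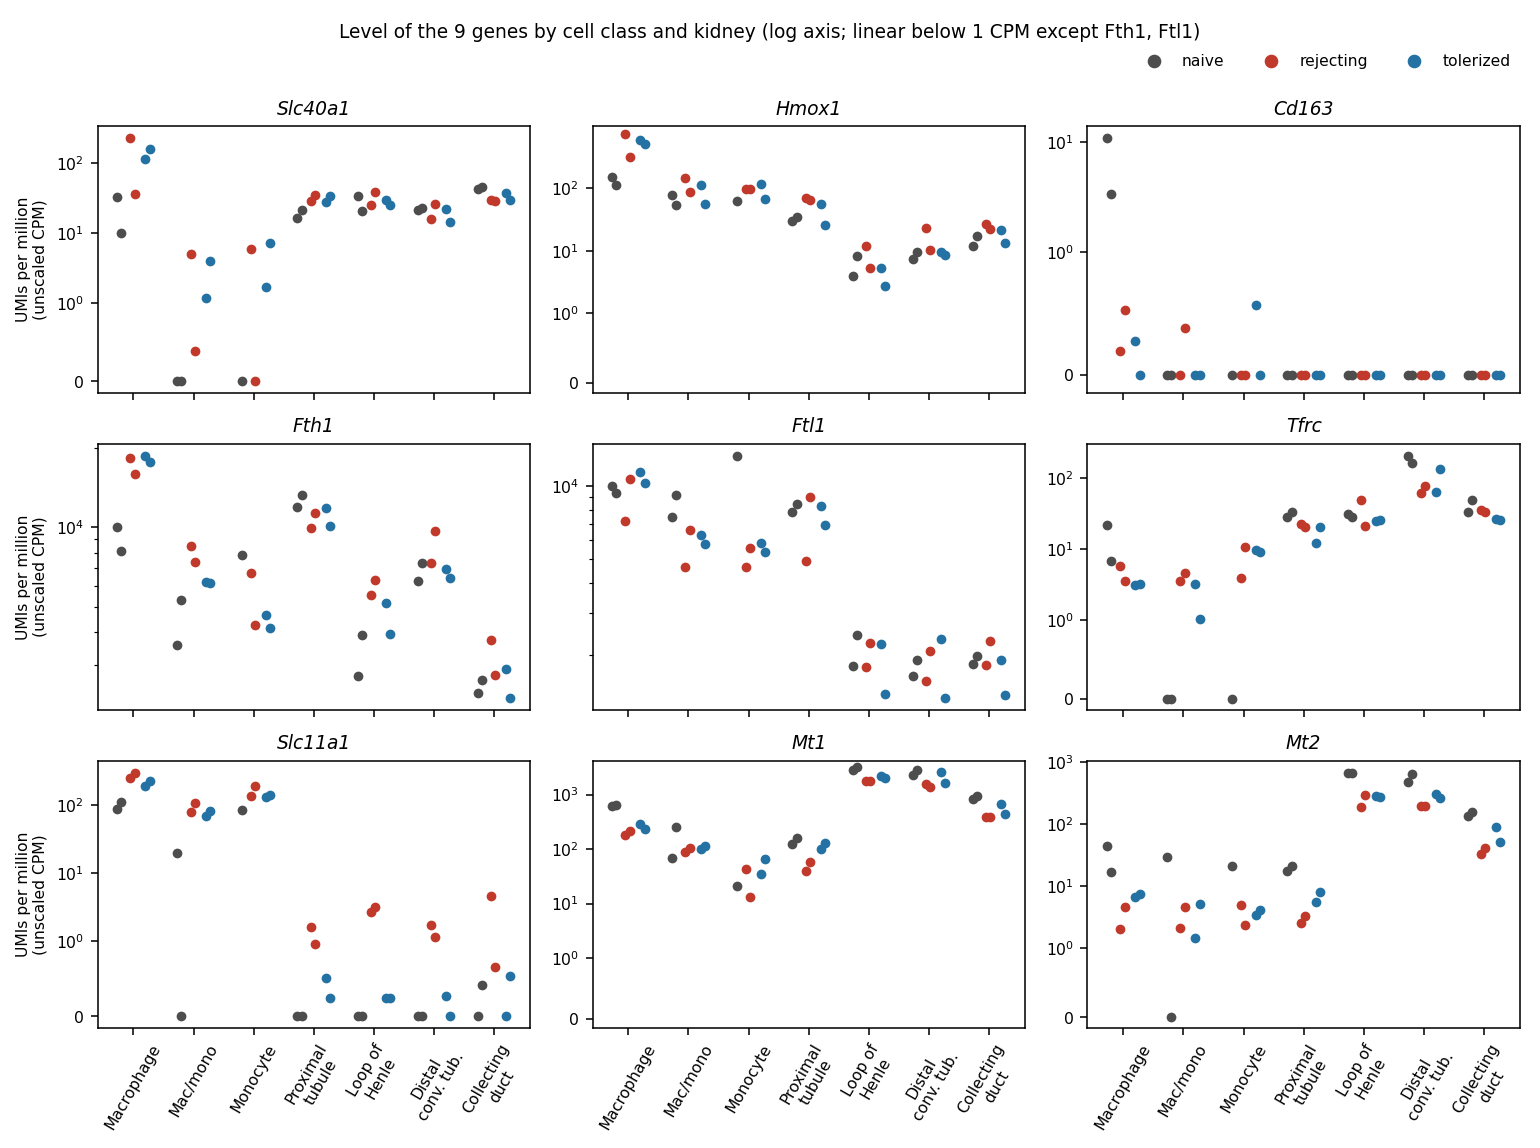
Unscaled CPM of each gene (vertical axis, logarithmic, and linear under 1 CPM except for Fth1 and Ftl1) in 7 classes of cells, where each point is 1 kidney with at least 20 cells of that class and colors mark the group. Hmox1 and Slc11a1 peak in macrophage-like cells, Tfrc in distal convoluted tubule-like cells, and Mt1 and Mt2 in the loop of Henle and distal convoluted tubule, while Cd163 is at or near 0.

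The comparison of tolerized with rejecting grafts asked which of these genes differed between kidneys of the same strain, age and surgery, whose donors could be of either sex. For this and later comparisons, raw UMIs were summed per kidney and class and tested with edgeR's quasi-likelihood method, values are CPM after TMM scaling, errors of log2 fold changes are standard errors (SE), and adjusted p values are Benjamini-Hochberg values over all genes tested in that class. None of the genes passed an adjusted p of 0.05 in any of the 7 classes. At an unadjusted p under 0.05 lay 2 members in macrophage-like cells, 3 in the proximal tubule, 1 in the loop of Henle, 3 in the distal convoluted tubule and 2 in the collecting duct. In these last 3 classes 693 of 9647, 831 of 10249 and 885 of 10923 genes lay there. DESeq2 called 2 members, both in the proximal tubule. In macrophage-like cells 0 of 8 tested members were called, and 0% of all 11308 genes, with 637 genes at an unadjusted p under 0.05. DESeq2 called 29 genes there, none of them a member. In macrophage/monocyte-like and monocyte-like cells edgeR also called 0 genes, with 555 and 374 at an unadjusted p under 0.05, and DESeq2 called 22 and 19, no member among them. Without the first rejecting kidney Mt1 was called in monocyte-like cells (1.97, adjusted p = 0.00805), and without the second Fth1 was (-0.61, adjusted p = 0.0436). The study's supplement tells of 2 experiments, but the labels tie no replicate number to either of them. The p values measure the spread between these kidneys, and with 2 against 2 an exact permutation test of a single value could not go below 0.3333.

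Slc40a1 was the most variable of the genes among macrophage-like cells of the grafts. It measured 222 and 34.98 CPM in the rejecting kidneys and 112 and 170 CPM in the tolerized kidneys. The first rejecting kidney was the highest and the second the lowest, so both tolerized kidneys lay between them, with a log2 fold change of 0.13 ± 0.71 (adjusted p = 0.994). The same order of kidneys was seen in both clusters that hold the graft macrophages, with unscaled CPM of 228, 36.1, 113 and 163 in the larger cluster. The result hung on single kidneys. Without the first rejecting kidney Slc40a1 was called higher in tolerized grafts by a log2 of 2.00 (adjusted p = 0.0314), without the second the value was -0.67, and without the second tolerized kidney it was -0.20. After every cell was thinned to 1000 UMIs, 12.6% (95% Wilson interval 10.9 to 14.6) and 1.62% (1.06 to 2.46) of macrophage-like cells of the rejecting kidneys held a Slc40a1 UMI, against 7.30% (5.86 to 9.05) and 8.70% (6.08 to 12.3) in the tolerized kidneys. Without thinning these shares were 23.8%, 6.63%, 17.9% and 18.9%. Thinning left out 12 to 90 cells per graft, and these intervals cover counting error only. T cell-like cells, which should lack the gene, held it in 0.554%, 0%, 0.124% and 0.233% after thinning, where none in 2312 cells of the second rejecting kidney leaves a Wilson upper bound of 0.166%. Their median depth was 1292 to 4791 UMIs, against 8530 to 14678 UMIs in macrophage-like cells.

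Hmox1 ordered the rejecting kidneys in the same way. Its level in macrophage-like cells was 735 and 306 CPM in rejecting and 593 and 551 CPM in tolerized grafts, a log2 fold change of 0.14 ± 0.38 (adjusted p = 0.985), with the tolerized pair inside the range of the rejecting pair. Macrophage/monocyte-like cells held 145 and 83.5 CPM against 112 and 60.1 CPM, and monocyte-like cells 99.7 and 94.4 CPM against 117 and 72.1 CPM, both overlapping. Slc11a1 measured 248 and 288 CPM in rejecting and 196 and 240 CPM in tolerized macrophage-like cells. The groups did not overlap, but the difference of -0.30 ± 0.19 did not pass (adjusted p = 0.913). Tfrc was low, at 5.69 and 3.38 CPM against 3.12 and 3.39 CPM.

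Ferritin mRNA differed little between the graft groups. Fth1 measured 18048 and 15276 CPM in rejecting macrophage-like cells and 18589 and 18665 CPM in tolerized ones (log2 fold change 0.16 ± 0.16, adjusted p = 0.947). Ftl1 measured 7083 and 10298 CPM against 11427 and 10971 CPM (0.37 ± 0.21, adjusted p = 0.912), and the first rejecting kidney was low. That kidney also had the largest share of UMIs assigned to Ftl1-ps1, a pseudogene of Ftl1 that only the graft matrices list. Ftl1-ps1 took 2.503% and 1.01% of the UMIs of both genes together in rejecting and 0.390% and 0.511% in tolerized macrophage-like cells, and the first rejecting kidney was highest in each of the 10 classes examined. The part of this in the Ftl1 values was not tested.

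**Figure D2:**
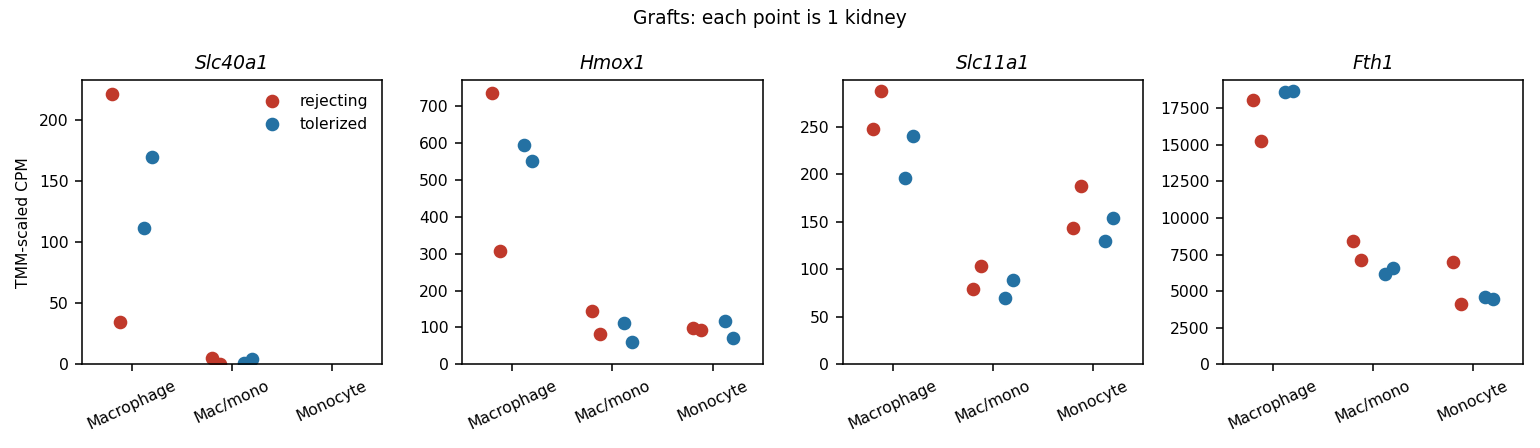
TMM-scaled CPM (vertical axes, from 0) of Slc40a1, Hmox1, Slc11a1 and Fth1 in the 3 phagocyte classes of the grafts, where each point is 1 kidney. For Slc40a1 and Hmox1 in macrophage-like cells the rejecting kidneys lie on either side of both tolerized kidneys, and Slc40a1 was not tested in monocyte-like cells.

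To set the grafts beside naive kidneys, the 3 phagocyte classes were summed per kidney. In rejecting kidneys Hmox1, Fth1 and Slc11a1 rose and Mt1 and Mt2 fell, so 5 of 9 members were called, where 15.3% of all 11742 genes were (8.38% higher, 6.95% lower). In tolerized kidneys the same 3 genes rose and none fell, 3 of 9 members, where 8.78% of all genes were called (5.23% higher, 3.55% lower). These comparisons share the naive kidneys. The median of all genes lay at 0.15 and 0.16 on the log2 scale, so the changes stand relative to that shift, which leaves their directions as they are.

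Hmox1 measured 109 and 103 CPM in naive phagocytes, 584 and 256 CPM in rejecting and 472 and 389 CPM in tolerized ones. Every graft exceeded both naive kidneys, with log2 fold changes of 2.00 ± 0.39 (adjusted p = 0.00805) and 2.03 ± 0.39 (adjusted p = 0.0121). Fth1, the ferroxidase chain of ferritin, rose from 5788 and 7980 CPM to 15608 and 13290 CPM in rejecting and 15341 and 14231 CPM in tolerized kidneys. Its changes were 1.07 ± 0.22 (adjusted p = 0.00961) and 1.10 ± 0.22 (adjusted p = 0.0134). Ftl1 overlapped between the groups, with 7853 and 10380 CPM in naive and 6525 to 10117 CPM in graft kidneys. The 2 ferritin chains thus gave different values in the same cells, and the difference between them was not tested. Only the graft matrices list Ftl1-ps1, and the part of this in the naive-graft Ftl1 values was not tested.

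Slc11a1 rose from 43.4 and 90.4 CPM to 210 and 251 CPM in rejecting kidneys (1.70 ± 0.30, adjusted p = 0.00523) and to 170 and 199 CPM in tolerized kidneys (1.38 ± 0.30, adjusted p = 0.0230). Slc40a1 measured 13.02 and 7.33 CPM in naive, 167 and 27.1 CPM in rejecting and 83.8 and 115 CPM in tolerized phagocytes. Each graft exceeded both naive kidneys, but neither difference passed (3.36 ± 1.18, adjusted p = 0.0823, and 3.39 ± 1.18, adjusted p = 0.105). In the naive phagocyte sums 3 UMIs equal 14.1 and 6.88 unscaled CPM, so the naive Slc40a1 values lie near that floor. The cluster of most naive macrophage-like cells held 3 Slc40a1 UMIs in each naive kidney, 35.73 and 10.65 unscaled CPM. In the larger graft cluster the second rejecting kidney had 36.07 CPM. DESeq2 called both (adjusted p = 0.00803 and 0.0116). Cd163 had 2 naive UMIs, and the ratio of rejecting to naive CPM was 0.0999 with a 95% counting interval of 0.0207 to 0.95. Tfrc lay at 3.74 to 8.68 CPM in all 6 kidneys.

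The composition of the naive sums differed from the grafts. Macrophage markers summed to 6604 and 11129 CPM in naive and 14250 to 19386 CPM in graft phagocytes, with all 10 detected in each kidney. Macrophage-like cells made up 36 of 79 and 98 of 146 naive phagocytes. In rejecting kidneys they were 1310 of 2065 and 1327 of 2050, and in tolerized ones 1080 of 1783 and 334 of 603. By this share only the first naive kidney lay under the grafts. All 11 proximal tubule markers were also detected in each kidney and summed to 1385 and 1758 CPM in naive against 48.8 to 346 CPM in graft phagocytes. Immediate early genes, all 7 detected, summed to 7477 and 8903 CPM against 2637 to 4192 CPM. In macrophage-like cells alone, unscaled CPM of Hmox1 was 153 and 115 in naive and 317 to 745 in graft kidneys, and that of Fth1 was 9977 and 8115 against 15839 to 18638, so the groups did not overlap there either. In macrophage/monocyte-like cells Hmox1 overlapped, with 78.6 and 54.4 CPM in naive and 56.0 to 147 CPM in graft kidneys. Fth1 did not overlap there, with 3577 and 5301 CPM against 6143 to 8486 CPM. Monocyte-like cells of the second naive kidney, 22 cells, held 7841 CPM of Fth1, more than the 4164 to 6737 CPM of the grafts. Their Hmox1 was 63.6 CPM, on 3 UMIs, against 66.7 to 118 CPM. The part of composition in these and the other changes was not tested. Calls rested on both naive kidneys: without the first, only Slc11a1 and Mt1 were called in rejecting and only Mt1 in tolerized phagocytes, and without the second only Fth1 and Slc11a1 in rejecting and only Fth1 in tolerized ones. Slc40a1 was called in the tolerized comparison without any 1 of the 4 graft kidneys, and in the rejecting comparison without any 1 of them but the first rejecting kidney.

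Transferrin receptor mRNA was lower in graft than in naive proximal tubule. In the proximal tubule-like cells of rejecting kidneys Fth1, Tfrc, Mt1 and Mt2 fell and Slc11a1 rose against naive kidneys, 5 of 8 tested members, where 42% of all 12620 genes were called (22.8% higher, 19.2% lower). In tolerized kidneys Tfrc and Mt2 fell and Slc11a1 rose, 3 of 8, where 32.5% of genes were called (17.2% higher, 15.3% lower). A share near that background is no result about these genes as a group. Tfrc measured 34.2 and 39.5 CPM in naive, 19.5 and 17.6 CPM in rejecting and 11.3 and 21.9 CPM in tolerized kidneys. It was lower in every graft (-0.99 ± 0.29, adjusted p = 0.0234, and -1.15 ± 0.28, adjusted p = 0.0151). With cells limited to 20% mitochondrial UMIs neither call held (-0.50, adjusted p = 0.203, and -0.41, adjusted p = 0.302). The rejecting call was also lost without any 1 of the naive or rejecting kidneys, and the tolerized call without the second naive kidney.

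Fth1 in proximal tubule-like cells measured 14251 and 15388 CPM in naive, 8529 and 9771 CPM in rejecting and 10974 and 10588 CPM in tolerized kidneys. The rejecting kidneys were lowest and the groups did not overlap, with a fall of 0.70 ± 0.20 on the log2 scale against naive kidneys (adjusted p = 0.0225), a call that was lost without either naive kidney or the first rejecting kidney. The tolerized value was -0.46 ± 0.20 (adjusted p = 0.110), and that between the grafts 0.24 ± 0.20 (adjusted p = 0.763). Ftl1 measured 9374 and 9742 CPM in naive, 4223 and 7827 CPM in rejecting and 7677 and 7273 CPM in tolerized kidneys, and neither comparison passed (adjusted p = 0.0887 and 0.361). The part of the listing of Ftl1-ps1 in the graft matrices alone was not tested here either. Hmox1 measured 35.8 and 40.1 CPM, 60.1 and 56.0 CPM, and 52.5 and 27.5 CPM in the same order, and Slc40a1 19.8 and 24.4 CPM, 24.5 and 30.0 CPM, and 25.5 and 35.9 CPM. Neither of them was called.

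Slc11a1 had no UMI in the proximal tubule-like cells of naive kidneys, which allows up to 0.0829 CPM over both, and 29 and 27 UMIs over the rejecting and tolerized pairs. Its level was at least 16.7-fold higher in rejecting and at least 4.54-fold higher in tolerized kidneys than that limit. Macrophage markers in the same cells summed to 6.29 and 13.8 CPM in naive, 197 and 64.0 CPM in rejecting and 43.3 and 16.9 CPM in tolerized kidneys, and 9 of 10 markers were detected in the first naive kidney and all 10 in the others. The part of these macrophage transcripts in the Slc11a1 values was not tested. The tolerized call was lost without either naive kidney or the first tolerized kidney.

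Tfrc also fell in the distal convoluted tubule, the class where it was highest. It measured 230 and 179 CPM in naive, 59.6 and 74.7 CPM in rejecting and 58.7 and 144 CPM in tolerized kidneys. Both rejecting kidneys lay under both naive kidneys (-1.61 ± 0.35, adjusted p = 0.00729, lost without the first naive kidney), and the tolerized kidneys, which spread widely, gave -1.01 ± 0.33 (adjusted p = 0.0585). The direction depended on which cells were kept. Naive cells of this class had a median of 38.4% and 40.6% mitochondrial UMIs, against 22.3% to 29.8% in the grafts, and with at most 20% allowed, 75 and 76 of 621 and 578 naive cells remained and the values turned to 0.72 (adjusted p = 0.271) and 1.06 (adjusted p = 0.0899). In loop of Henle-like and collecting duct-like cells Tfrc lay at 20.6 to 50.7 CPM in all kidneys and was not called.

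Mt2 was lower in rejecting than in naive kidneys in every class tested, and Mt1 as well. In proximal tubule-like cells Mt1 measured 150 and 184 CPM in naive, 34.7 and 50.2 CPM in rejecting and 92.3 and 134 CPM in tolerized kidneys. The rejecting kidneys were lowest and the tolerized kidneys lay between, without overlap. The fall against naive kidneys was 1.98 ± 0.25 on the log2 scale in rejecting kidneys (adjusted p = 0.000598), and the tolerized value was -0.56 ± 0.24 (adjusted p = 0.109). Mt2 measured 20.8 and 24.9 CPM, 2.19 and 2.85 CPM, and 5.28 and 8.45 CPM in the same order. It fell by 3.21 ± 0.30 in rejecting (adjusted p = 0.000123) and by 1.73 ± 0.26 in tolerized kidneys (adjusted p = 0.00161).

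Mt2 mRNA also fell in both graft groups in the distal segments. Loop of Henle-like cells held 689 and 707 CPM of Mt2 in naive, 185 and 282 CPM in rejecting and 268 and 284 CPM in tolerized kidneys. Both graft groups were lower than naive kidneys (-1.58 ± 0.24, adjusted p = 0.000640, and -1.34 ± 0.23, adjusted p = 0.00238). Mt1 there measured 2968 and 3370 CPM, 1756 and 1743 CPM, and 2051 and 2093 CPM, and it fell in rejecting kidneys (-0.86 ± 0.22, adjusted p = 0.0190) but did not pass in tolerized ones (-0.61 ± 0.22, adjusted p = 0.0954). Only Mt1 and Mt2 of the 7 tested members were called in rejecting loop of Henle-like cells, where 17.3% of genes were (9.15% higher, 8.11% lower), and only Mt2 in tolerized ones, where 11.4% were (5.78% higher, 5.62% lower). Without any 1 of the naive or rejecting kidneys, the Mt1 call of this class was lost.

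Distal convoluted tubule-like cells gave 516 and 692 CPM of Mt2 in naive, 189 and 185 CPM in rejecting and 277 and 271 CPM in tolerized kidneys. All 3 groups were apart, with changes of -1.69 ± 0.19 (adjusted p = 0.000172) and -1.14 ± 0.19 (adjusted p = 0.00221). Mt1 measured 2451 and 3052 CPM, 1474 and 1281 CPM, and 2399 and 1737 CPM, and fell in rejecting kidneys (-0.998 ± 0.22, adjusted p = 0.00878, lost without the second naive kidney). With Tfrc, 3 of 7 tested members were called in rejecting kidneys of this class, where 23.2% of genes were (12.4% higher, 10.8% lower), and Mt2 alone in tolerized ones, where 16.5% were (8.84% higher, 7.62% lower). In collecting duct-like cells Mt2 measured 139 and 158 CPM, 32.2 and 40.2 CPM, and 87.8 and 55.8 CPM. It fell in both graft groups (-2.02 ± 0.26, adjusted p = 0.000430, and -1.06 ± 0.23, adjusted p = 0.0104), the latter lost without either naive kidney or the second tolerized kidney and both lost with at most 20% mitochondrial UMIs (adjusted p = 0.0508 and 0.139). Mt1 of the collecting duct measured 837 and 943 CPM, 374 and 373 CPM, and 639 and 488 CPM and fell in rejecting kidneys (-1.25 ± 0.22, adjusted p = 0.00287). Calls here numbered 2 of 7 in rejecting and 1 of 7 in tolerized kidneys, where 19.9% (11.1% higher, 8.76% lower) and 16% (8.96% higher, 7.09% lower) of genes were called.

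Phagocytes showed the same direction. Mt1 measured 282 and 530 CPM in naive, 156 and 180 CPM in rejecting and 236 and 198 CPM in tolerized phagocytes, a fall of 1.30 ± 0.28 in rejecting kidneys (adjusted p = 0.0128). Mt2 measured 30.4 and 14.7 CPM, 2.30 and 4.31 CPM, and 5.51 and 6.97 CPM, a fall of 2.66 ± 0.60 (adjusted p = 0.0154), which was lost with at most 20% mitochondrial UMIs (adjusted p = 0.0594). The tolerized values of -0.93 ± 0.28 and -1.77 ± 0.57 did not pass (adjusted p = 0.0660 and 0.0869). In macrophage-like cells alone, unscaled Mt1 was 613 and 650 CPM in naive and 185 to 290 CPM in graft kidneys. Mt2 there was 43.8 and 16.9 CPM in naive, on 4 and 5 UMIs, and 2.08 to 7.63 CPM in grafts. In macrophage/monocyte-like cells Mt1 overlapped, with 68.8 and 250 CPM in naive, on 7 and 23 UMIs, and 86.5 to 115 CPM in grafts.

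Tolerized kidneys had more metallothionein mRNA than rejecting kidneys in the values of most classes, but no call was made. The largest differences were in proximal tubule-like cells, 1.42 ± 0.25 for Mt1 and 1.47 ± 0.30 for Mt2 (adjusted p = 0.191 for each), with no overlap between the groups and with 0% of all genes called there by edgeR (1383 at an unadjusted p under 0.05). DESeq2 called 171 genes there, both metallothioneins among them, and edgeR called both without the first tolerized kidney. Macrophage-like cells held 182 and 210 CPM of Mt1 in rejecting and 289 and 250 CPM in tolerized kidneys (0.46 ± 0.18, adjusted p = 0.850). Mt2 there measured 2.05 and 4.39 CPM against 6.64 and 8.08 CPM (1.16 ± 0.40, adjusted p = 0.842). Distal convoluted tubule-like cells gave 0.59 and 0.55 for Mt1 and Mt2 (adjusted p = 0.488 and 0.391), collecting duct-like cells 0.59 and 0.96 (adjusted p = 0.474 and 0.256), and loop of Henle-like cells 0.24 for each (adjusted p = 0.894 and 0.902). Genes called between the grafts made up 0.529% in loop of Henle-like, 0.0683% in distal convoluted tubule-like and 0.00915% in collecting duct-like cells. The difference between the macrophage-like and the proximal tubule-like change was tested itself, and called 0 of 8 members and 0% of 13112 genes (950 at an unadjusted p under 0.05, and 15 by DESeq2, none of them a member), with -0.95 ± 0.31 for Mt1 (adjusted p = 0.444).

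Several measures moved with the metallothioneins. In unscaled CPM, Mt1 was also lower in grafts outside the kidney tubule, with 184 and 141 in naive against 32.2 to 77.8 in graft T cell-like cells, and 127 and 145 against 13.8 to 49.0 in endothelium-like cells. The naive T cell-like values rest on 12 and 13 UMIs in 32 and 40 cells, and the rejecting endothelium-like values on 14 and 5 UMIs. Genes with short transcripts, at most 700 bases, had other median log2 fold changes than all genes in several classes. Both metallothioneins are among them, with median transcript lengths of 633 and 450 bases. The median of 539 such genes in proximal tubule-like cells was -0.92 for rejecting and -0.68 for tolerized against naive kidneys, and 0.23 for tolerized against rejecting kidneys, whereas the medians of all genes were 0.07, 0.06 and -0.001. For tolerized against rejecting macrophage-like cells, the median of 443 short genes was 0.20, with 73.4% above 0, and for monocyte-like cells that of 287 was 0.03. For rejecting and tolerized against naive kidneys, their medians were -0.43 and -0.24 in phagocytes, -0.13 and -0.07 in loop of Henle-like, -0.34 and -0.23 in distal convoluted tubule-like and -0.30 and -0.26 in collecting duct-like cells. Between the grafts they were -0.02, 0.10 and -0.01 in these 3 distal classes. Mt2 overlaps Gm45774, an antisense gene listed only in the graft matrices, which took 0 to 6 UMIs per kidney and class beside 22 to 2227 of Mt2. The part of these in the metallothionein values was not tested.

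**Figure D3:**
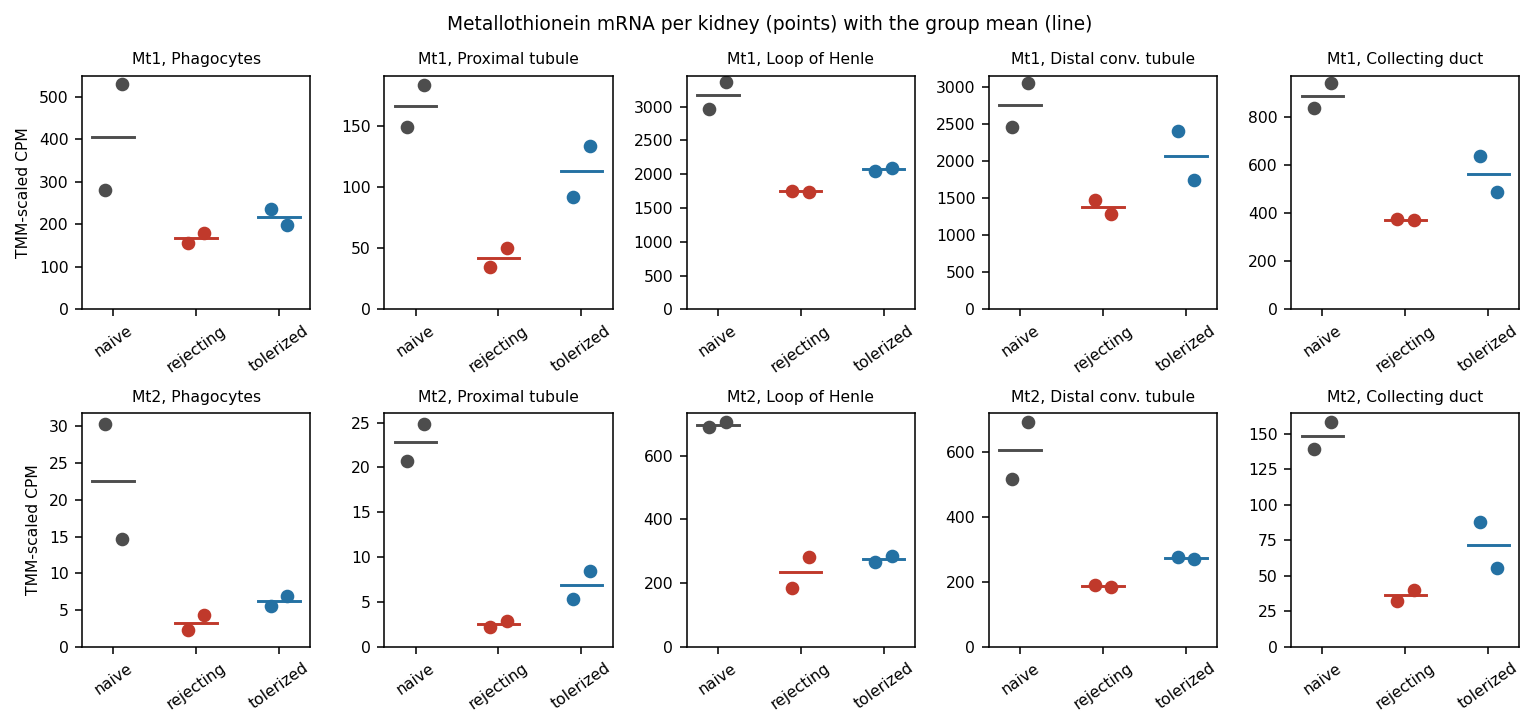
TMM-scaled CPM (vertical axes, from 0) of Mt1 and Mt2 in phagocytes and 4 tubular classes, where each point is 1 kidney and the line is the mean of its group. The naive kidneys lie above both rejecting kidneys in each panel, and the tolerized kidneys lie above the rejecting ones in all panels except Mt2 of the loop of Henle, where they overlap.

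**Figure D4:**
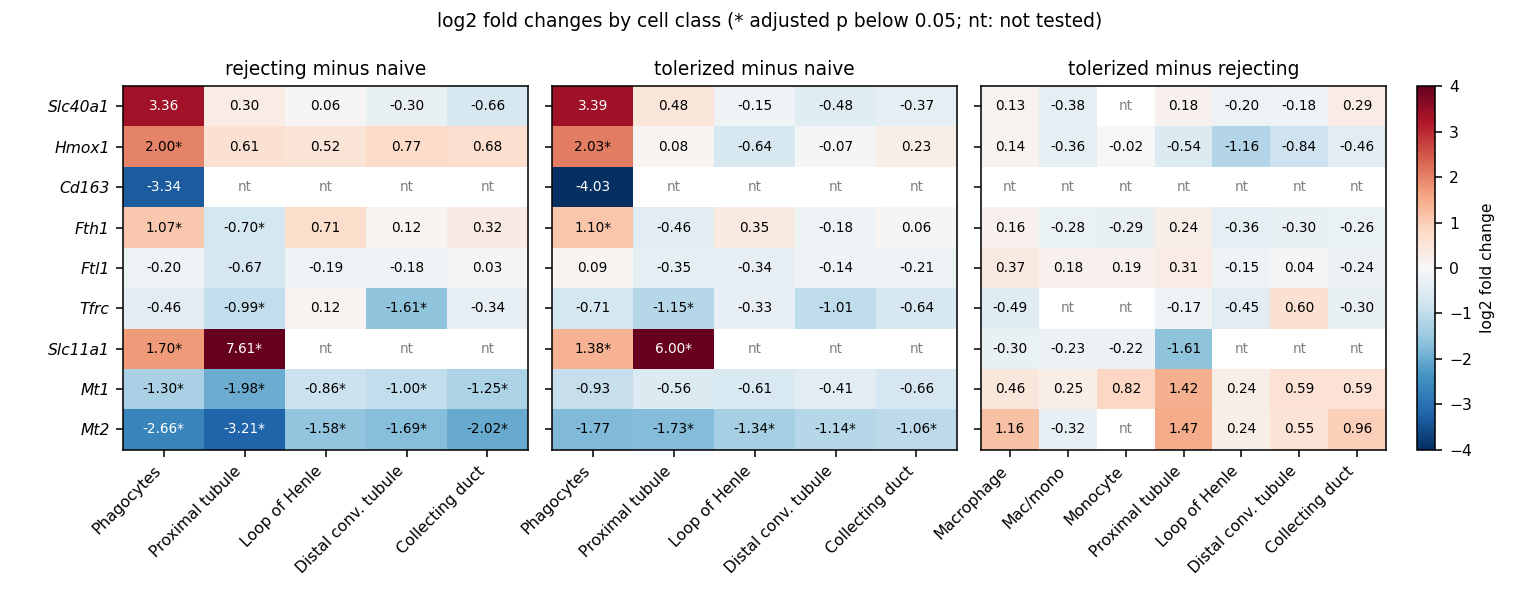
Fitted log2 fold changes of the 9 genes (rows) by class (columns) in 3 comparisons, with an asterisk for an adjusted p under 0.05, "nt" for genes that were not tested and colors that end at 4 on either side. Asterisks stand on Hmox1, Fth1 and Slc11a1 in graft phagocytes and on Mt2 in most naive-graft columns, and none stands in the comparison of tolerized with rejecting kidneys. The Slc11a1 values in the proximal tubule were fitted against naive kidneys without UMIs and are not sizes of change.

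Beyond the 9 genes, 52 further genes of iron, haem and zinc handling were examined as a fixed list. In rejecting phagocytes 8 of 42 tested genes rose and 2 fell, and in tolerized ones 6 rose and 2 fell, against the 15.3% and 8.78% of all genes given before. Of 9 tested genes of haem and haemoglobin handling, 4 rose and 1 fell in rejecting and 3 rose and 1 fell in tolerized phagocytes. Of 8 tested genes of haem synthesis, 0 were called in either group. Blvrb, biliverdin reductase B, measured 69.4 and 130 CPM in naive, 656 and 481 CPM in rejecting and 473 and 406 CPM in tolerized phagocytes (2.46 ± 0.30, adjusted p = 0.000842, and 2.08 ± 0.30, adjusted p = 0.00310). Blvra, biliverdin reductase A, was not called in rejecting phagocytes (0.46 ± 0.28, adjusted p = 0.286). Spic, a transcription factor of red pulp macrophages, rose in rejecting kidneys from 4.34 and 14.7 CPM to 105 and 44.1 CPM (2.78 ± 0.68, adjusted p = 0.0218) and measured 58.4 and 64.3 CPM in tolerized ones (2.498 ± 0.69, adjusted p = 0.0516). Bach1, the haem-sensing repressor of Hmox1, rose from 52.1 and 39.1 CPM to 108 and 124 CPM in rejecting and 122 and 111 CPM in tolerized kidneys (adjusted p = 0.00785 and 0.0125). The zinc exporter gene Slc30a1 rose from 8.68 and 7.33 CPM to 39.3 and 35.1 CPM in rejecting and 30.7 and 23.0 CPM in tolerized kidneys (adjusted p = 0.0100 and 0.0448). Both naive Slc30a1 values and the first naive Spic value rest on few UMIs, as 3 UMIs equal 14.1 and 6.88 unscaled CPM there. Abcg2, a transporter that can export porphyrins, fell from 26.0 and 70.9 CPM to 9.13 and 7.77 CPM in rejecting and 13.3 and 22.0 CPM in tolerized phagocytes (adjusted p = 0.00423 and 0.0459). Cisd1, an iron-sulphur protein of the outer mitochondrial membrane, fell from 156 and 152 CPM to 64.8 and 49.2 CPM and to 49.0 and 75.1 CPM (adjusted p = 0.00817 and 0.0195). As given before, proximal tubule markers summed higher in naive than in graft phagocytes. The part of this in the falls of Abcg2 and Cisd1 was not tested. The mitochondrial iron importer Slc25a37 and the zinc importer Slc39a10 had 2 naive UMIs each, and their rejecting-to-naive ratios were 6.71 (95% counting interval 1.85 to 55.6) and 6.33 (1.75 to 52.4).

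Ncoa4, the receptor that sends ferritin to lysosomes, was called higher in grafts in all 5 naive-graft classes, but it differed in the same way in every class examined. Its unscaled level was 0 to 4.66 CPM in naive and 19.3 to 74.2 CPM in graft kidneys wherever a value is given, T cell-like and B cell-like cells included, where no naive kidney had a UMI. The part of the gene list and of the processing in this difference was not tested.

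Among proximal tubule-like cells of rejecting kidneys 9 of 43 tested genes of the list rose and 13 fell, 51.2% against the 42% of all genes, and of tolerized kidneys 8 rose and 7 fell, 34.9% against 32.5%. Bmp6, a signal that raises hepcidin, measured 0.114 and 0.380 CPM in naive, 33.2 and 35.9 CPM in rejecting and 27.2 and 22.9 CPM in tolerized kidneys (7.20 ± 0.35, adjusted p = 3.12e-06, and 6.74 ± 0.35, adjusted p = 4.3e-06). In the naive sums 3 UMIs equal 0.143 and 0.197 unscaled CPM, so the naive Bmp6 values lie near the floor. The Bmp6 gene overlaps 4930579J19Rik, an antisense gene listed only in the graft matrices. Slc39a8, a zinc and iron importer, rose from 9.38 and 12.6 CPM to 23.9 and 26.4 CPM in rejecting and 32.1 and 28.1 CPM in tolerized kidneys, and Steap3, a ferrireductase of endosomes, from 1.59 and 1.52 CPM to 4.07 and 4.16 CPM and 6.02 and 3.42 CPM. Cp, the ferroxidase ceruloplasmin, rose in rejecting kidneys from 2.56 and 1.14 CPM to 14.3 and 29.2 CPM (adjusted p = 0.00672) and measured 13.6 and 2.75 CPM in tolerized ones (adjusted p = 0.0571). The haem transporter relative Flvcr2 rose from 2.67 and 3.12 CPM to 5.26 and 4.52 CPM in rejecting and 6.52 and 6.57 CPM in tolerized kidneys (adjusted p = 0.0420 and 0.00816).

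Other genes of the list fell in the same cells. Iscu, the scaffold on which iron-sulphur clusters are built, measured 514 and 520 CPM in naive, 185 and 228 CPM in rejecting and 241 and 253 CPM in tolerized kidneys (adjusted p = 0.000662 and 0.00245). The haem synthesis gene Uros fell from 13.6 and 15.8 CPM to 4.76 and 8.32 CPM and 6.30 and 9.09 CPM. The zinc importer gene Slc39a1 fell from 52.8 and 52.4 CPM to 19.3 and 21.4 CPM and 22.8 and 23.7 CPM. Flvcr1, a haem exporter, fell in rejecting kidneys from 2.22 and 1.67 CPM to 0.5005 and 0.475 CPM (adjusted p = 0.0182) and measured 0.604 and 1.04 CPM in tolerized ones (adjusted p = 0.0654). Pcbp2, an iron chaperone, fell from 272 and 289 CPM to 151 and 138 CPM in rejecting and 160 and 192 CPM in tolerized kidneys (adjusted p = 0.00273 and 0.0164). Injured tubule markers, all 8 detected, summed in these cells to 407 and 394 CPM in naive and 1445 to 2992 CPM in graft kidneys. The part of these markers in the changes was not tested. Whether the falls were particular to the proximal tubule was not tested, and neither was the part of the processing in them.

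In the distal classes the list gave 4 to 6 rises and 4 or 5 falls against naive in rejecting kidneys, among 39 or 40 tested genes, and 2 to 6 rises and 2 to 4 falls in tolerized ones. The genes called in rejecting kidneys were 22.5% of the list in loop of Henle-like, 23.1% in distal convoluted tubule-like and 28.2% in collecting duct-like cells, where 17.3%, 23.2% and 19.9% of all genes were called. In tolerized kidneys they were 12.5%, 15.4% and 25.6%, against 11.4%, 16.5% and 16% of all genes. Alad, an early enzyme of haem synthesis, rose in all 3 classes of both graft groups, in loop of Henle-like cells from 21.0 and 40.9 CPM to 81.0 and 64.9 CPM in rejecting and 80.2 and 74.5 CPM in tolerized kidneys. Alas1, its rate-limiting enzyme, rose in collecting duct-like cells from 28.5 and 29.1 CPM to 80.4 and 63.7 CPM and 54.0 and 67.0 CPM. Abcg2 fell in distal convoluted tubule-like cells from 18.4 and 38.4 CPM to 7.05 and 3.23 CPM and 8.32 and 12.8 CPM, and in loop of Henle-like cells from 23.4 and 43.8 CPM to 4.26 and 0 CPM and 5.23 and 11.4 CPM. The brain-enriched metallothionein Mt3 fell in rejecting distal convoluted tubule-like cells from 10.3 and 12.96 CPM to 2.17 and 0.538 CPM (adjusted p = 0.0149), and the divalent metal transporter Slc11a2 from 17.1 and 15.9 CPM to 7.05 and 6.45 CPM (adjusted p = 0.00968). Slc25a28, a mitochondrial iron importer, rose there from 40.4 and 49.0 CPM to 90.5 and 81.2 CPM in rejecting and 81.2 and 60.2 CPM in tolerized kidneys (adjusted p = 0.00811 and 0.0470). Hephaestin, encoded by Heph, is a ferroxidase of iron export, and its mRNA fell in loop of Henle-like cells from 21.0 and 20.4 CPM to 7.46 and 9.27 CPM in rejecting and 7.05 and 11.1 CPM in tolerized kidneys. Fech, the last enzyme of haem synthesis, fell in rejecting collecting duct-like cells from 53.9 and 47.4 CPM to 32.2 and 26.8 CPM (adjusted p = 0.0265).

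Lcn2 was the 1 gene of the list that differed between tolerized and rejecting kidneys. It encodes lipocalin 2, a carrier of iron-binding siderophores and a known marker of tubular injury. In loop of Henle-like cells it measured 6.46 and 8.76 CPM in naive, 225 and 325 CPM in rejecting and 66.1 and 13.7 CPM in tolerized kidneys. The rejecting kidneys were highest in this class, and the tolerized kidneys were lower (-2.82 ± 0.49 on the log2 scale, adjusted p = 0.0302), in a class where 0.518% of all genes were called lower. In distal convoluted tubule-like cells Lcn2 had no UMI in naive kidneys, 97.0 and 452 CPM in rejecting and 24.0 and 4.08 CPM in tolerized kidneys, and was at least 550-fold higher in rejecting than in naive kidneys. The difference between the grafts did not pass there (adjusted p = 0.0789). In collecting duct-like cells the gene was present in naive kidneys too, at 37.5 and 114 CPM, and rose to 304 and 768 CPM in rejecting and 464 and 163 CPM in tolerized kidneys.

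**Figure D5:**
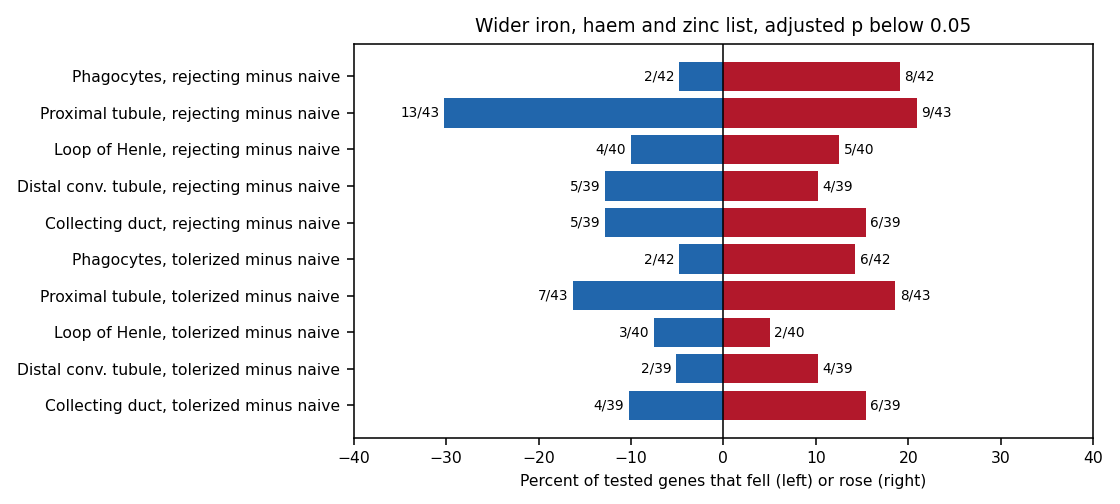
Percent of the tested genes of the iron, haem and zinc list that rose (right) or fell (left) at an adjusted p under 0.05, by class and comparison, with the counts beside the bars. Proximal tubule-like cells of rejecting kidneys changed most, with 9 of 43 genes up and 13 down, in the class where 42% of all genes were called.

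Genes most like each member were sought by Pearson correlation of log2(CPM + 1). The correlation ran over 76 sums of a class and kidney with at least 20 cells. Of the genes named here, Tmem52b was itself a distal convoluted tubule marker used to name classes. Whether the others mark classes of cells was not tested. Slc11a1 was most like Fcgr4 (r = 0.910), Hmox1 like Sirpa (0.794), Psap and Csf1r, Ftl1 like Creg1 (0.803), Tfrc like Vegfb (0.778), Fth1 like Ninj1 (0.745), Slc40a1 like Sfxn5 (0.687) and Cd163 like Mmp13 (0.586). Mt1 was most like Mt2 (0.885), and Mt2 most like Tmem52b (0.896). These correlations are descriptions over sums that share 6 libraries and their depth.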

How the data were processed

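Counts were the authors' deposited Cell Ranger UMI counts (mm10), not normalized, 1 matrix per kidney. Barcodes under 500 UMIs or 250 genes, or over 50% mitochondrial, were left out, as were those with the highest doublet scores (0.8% per 1000 barcodes). Cells were clustered in scanpy 1.11.5 (2500 variable genes without the 9 genes and the iron, haem and zinc list, 40 components, 20 neighbours, Leiden resolution 1.5), and 37 of 40 clusters were named from at least 3 markers. UMIs were summed per kidney and class and tested with edgeR 4.0.16 (filterByExpr, TMM, quasi-likelihood F test, Benjamini-Hochberg adjusted p of 0.05). DESeq2 1.42.0, its size factors, no filter, other cell filters, a coarser clustering, a replicate block and leaving out each kidney were alternatives. The model was tested on simulated data. Of simulated 2-fold changes between the grafts it recovered 18.4% in macrophage-like and 51.5% in proximal tubule-like cells. Of 4-fold changes it recovered 79.6% and 80.8%, and it made 7 and 9 false calls. Members and lists were chosen with earlier results of these data known. Further genes were named where called without overlap, at most 5 per direction and comparison by size of change. Intervals cover counting error only. Sequences came from GENCODE M21 transcripts and RefSeq.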

Additional observations from a re-analysis of the deposited data

Results flagged for a closer look

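In several classes every kidney of 1 group lay on the same side of every kidney of the other, and the side differed between classes. The values below were picked for this, and the share of all genes that separate so is not given here. With 2 against 2 kidneys an exact permutation test could not go below 0.3333, so separation alone is weak. Those differences between classes were not tested, except that between macrophage-like and proximal tubule-like cells of the grafts. Fth1 was higher in rejecting than in naive phagocytes (log2 fold change 1.07) and lower in rejecting than in naive proximal tubule-like cells (-0.70). For tolerized against naive kidneys the Fth1 values were 1.10 in phagocytes, -0.46 in proximal tubule-like and -0.18 in distal convoluted tubule-like cells. Slc40a1 was higher in rejecting phagocytes than in naive ones (3.36) and lower in rejecting collecting duct-like cells (-0.66), and for tolerized against naive kidneys it was 3.39 in phagocytes, -0.48 in distal convoluted tubule-like and -0.37 in collecting duct-like cells. The naive Slc40a1 values in phagocytes rest on few UMIs. Between tolerized and rejecting kidneys Fth1 gave 0.16 in macrophage-like, -0.36 in loop of Henle-like and -0.30 in distal convoluted tubule-like cells. Of these values only those of Fth1 in phagocytes and in rejecting proximal tubule-like cells passed an adjusted p of 0.05 in edgeR.

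Ftl1-ps1 lies outside the genes compared, since the naive matrices do not list it. Its share of the UMIs of Ftl1 and Ftl1-ps1 in macrophage-like cells was 2.5% and 1.01% in the rejecting and 0.390% and 0.511% in the tolerized kidneys.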

How the results depend on the processing

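Of 26 member calls, every one held under DESeq2, DESeq2 size factors, no filter on low counts, at least 1000 UMIs per cell, the replicate block and clustering at resolution 0.8. With at most 20% mitochondrial UMIs, 18 of the 24 that could be computed held, 5 were lost and that of Tfrc in the distal convoluted tubule turned. Without either naive kidney 14 held and 12 were lost, and without any 1 graft kidney 1 to 3 were lost. Over all results, 848 of 903 values under the other alternatives and 623 of 735 with a kidney left out kept their direction and their side of the threshold. Causes were not tested. Resolution 0.8 gave no monocyte-like class and so no value for it. Naive phagocytes, with 79 and 146 cells, limit the comparisons with naive kidneys, and 2 kidneys per group limit all of them.

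Replicate numbers do not pair the kidneys by any label, and deviations of same-numbered kidneys correlated at -0.175 to 0.071. With the replicate number as a block, the tolerized-naive calls rose to 2 in the distal convoluted tubule through Tfrc (-1.12, adjusted p = 0.0281), Mt1 was called in the proximal tubule (-0.58, adjusted p = 0.0389), and no call was lost.

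Counts of members called changed as follows. The counts of all genes called under these settings, or with a kidney left out, are not given here. The member counts are therefore no result about the members as a group. Between tolerized and naive kidneys DESeq2 called 6 in phagocytes (3 by edgeR), 2 in loop of Henle (1), 2 in distal convoluted tubule (1) and 2 in collecting duct (1), and no filter on low counts gave 6, 1, 2 and 3. Between tolerized and rejecting kidneys DESeq2 and no filter each gave 2 in the proximal tubule (0), and no filter 1 in the collecting duct (0) and 1 for the difference between macrophage-like and proximal tubule-like changes (0). With at most 20% mitochondrial UMIs the distal convoluted tubule gave 2 in tolerized against naive kidneys (1) and the collecting duct 1 in rejecting against naive kidneys (2). With each kidney left out in turn, the counts ranged from 0 to 1 in macrophage-like and in monocyte-like cells, 2 to 6 and 1 to 5 in rejecting and tolerized phagocytes against naive, 3 to 6 and 1 to 3 in the proximal tubule and 0 to 2 between its grafts, 1 to 3 in rejecting loop of Henle, 1 to 2 in tolerized distal convoluted tubule and 0 to 3 in tolerized collecting duct.

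Values that changed sign were those of Slc40a1 in macrophage/monocyte-like cells at resolution 0.8 (0.051) and Ftl1 for the difference between classes with no filter (-0.014). With at most 20% mitochondrial UMIs the following turned. Between tolerized and naive kidneys they were Hmox1 in the proximal tubule (-0.060), Slc40a1 and Tfrc in loop of Henle (0.96 and 0.97) and Slc40a1 and Tfrc in distal convoluted tubule (0.42 and 1.06). Between rejecting and naive kidneys they were Slc40a1, Fth1 and Tfrc in distal convoluted tubule (0.58, -0.44 and 0.72). Between the grafts they were Slc40a1 and Tfrc in the proximal tubule (-0.058 and 0.090), Ftl1 in loop of Henle (0.095), Slc40a1 in collecting duct (-0.023) and Mt2 for the difference between classes (0.16).

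With each kidney left out in turn, these log2 fold changes spanned 0. For tolerized minus rejecting in macrophage-like cells the ranges were Slc40a1 -0.67 to 2.00 and Hmox1 -0.36 to 0.90. For tolerized minus rejecting in macrophage/monocyte-like cells the ranges were Slc40a1 -1.18 to 0.68, Hmox1 -0.94 to 0.083, Ftl1 -0.042 to 0.43 and Mt2 -1.12 to 0.73. For tolerized minus rejecting in monocyte-like cells the ranges were Hmox1 -0.42 to 0.27 and Fth1 -0.61 to 0.15. For rejecting minus naive in phagocytes the ranges were Ftl1 -0.47 to 0.075. For tolerized minus naive in phagocytes the ranges were Ftl1 -0.078 to 0.34. For tolerized minus naive in proximal tubule the ranges were Hmox1 -0.46 to 0.46. For tolerized minus rejecting in proximal tubule the ranges were Slc40a1 -0.084 to 0.41, Ftl1 -0.060 to 0.83 and Tfrc -0.71 to 0.24. For rejecting minus naive in loop of Henle the ranges were Slc40a1 -0.24 to 0.52, Hmox1 -0.18 to 1.05, Ftl1 -0.39 to 0.065 and Tfrc -0.61 to 0.63. For tolerized minus naive in loop of Henle the ranges were Slc40a1 -0.39 to 0.32. For tolerized minus rejecting in loop of Henle the ranges were Slc40a1 -0.44 to 0.11, Ftl1 -0.45 to 0.11, Tfrc -0.94 to 0.30 and Mt2 -0.016 to 0.58. For rejecting minus naive in distal convoluted tubule the ranges were Slc40a1 -0.67 to 0.005, Fth1 -0.093 to 0.30 and Ftl1 -0.39 to 0.011. For tolerized minus naive in distal convoluted tubule the ranges were Hmox1 -0.29 to 0.10 and Ftl1 -0.48 to 0.12. For tolerized minus rejecting in distal convoluted tubule the ranges were Slc40a1 -0.48 to 0.20, Ftl1 -0.30 to 0.32 and Tfrc -0.18 to 1.10. For rejecting minus naive in collecting duct the ranges were Ftl1 -0.15 to 0.19. For tolerized minus naive in collecting duct the ranges were Hmox1 -0.040 to 0.49 and Fth1 -0.042 to 0.15. For the difference between macrophage-like and proximal tubule-like changes the ranges were Slc40a1 -1.04 to 1.86, Fth1 -0.35 to 0.042, Ftl1 -0.22 to 0.085, Tfrc -0.70 to 0.12 and Mt2 -0.56 to 0.20.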

Other observations

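Stress and blood genes were summed in the same cells as values only, in unscaled CPM. The 7 NRF2 targets summed to 763 and 762 CPM in naive, 764 and 916 CPM in rejecting and 865 and 692 CPM in tolerized proximal tubule-like cells, where the groups overlapped. In macrophage-like cells they summed to 153 and 148 CPM in naive and 187 to 246 CPM in graft kidneys. The 5 erythrocyte genes, haemoglobin chains and Alas2, summed to 1048 and 509 CPM in naive proximal tubule-like cells against 23.2 to 155 CPM in graft ones. In macrophage-like cells they summed to 58.5 and 13.1 CPM in rejecting and 13.7 and 117 CPM in tolerized kidneys. T cell markers in macrophage-like cells summed to 143 and 42.8 CPM in rejecting and 19.8 and 36.9 CPM in tolerized kidneys.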
